A study of Mus musculus with 14 samples.

Results

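The change from the early to the late 2-cell stage was followed in mouse embryos kept in lactate medium. The 2 late 2-cell G&N libraries were set against the 2 early 2-cell G&N libraries, which the sample titles name, so that 4 of the 14 RNA-seq libraries of the series were members of the comparison. The embryos came from ICR mice. Early embryos were collected at 30 h post-hCG and late embryos at 54 h post-hCG, hCG being the hormone injection that times ovulation. In both groups the medium was mKSOM with 10 mM lactate, to which 5 µM Gne140 (G), an inhibitor of the lactate dehydrogenases LDHA and LDHB, and 50 µM NMN (N), a precursor of NAD, were added at 24 h post-hCG. The deposited treatment label of the early group names the inhibitor without NMN, while its title names both. Since both groups carried the inhibitor, the change is that of inhibitor-treated embryos with external lactate, and the stage cannot be told apart from the longer time in this medium. Each library held a pool of 5 embryos. No source used here says whether the 2 libraries of a group came from separate collections, so the p-values measure only the spread between these libraries, which may be technical. Of the other libraries, early and late 2-cell G&N-L embryos had the same additions in medium without lactate, and late 2-cell WT embryos were the control of the H3K18R group, for which the study's methods describe injection of wild-type H3 mRNA into zygotes. Their labels name no culture additions.

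As background, the mouse egg enters fertilization with a store of mRNA made in the growing oocyte, and its genome is silent. In the 2-cell embryo this store is broken down, with BTG4 and the CCR4-NOT deadenylase shortening poly(A) tails, while transcription starts from the embryo's own genome, first weakly and then in a major burst at the late 2-cell stage. The burst is known for gene families used for little else, such as Zscan4, Eif1ad-like and Tdpoz genes, for homeobox genes of the Obox and Crxos group, and for the genes that build ribosomes. Genes higher at the late stage are called gained here, and genes lower at the late stage lost. RNA was measured as reads per gene, so a gain or loss is a change in a gene's share of the library. How much RNA each embryo held was not measured, and less RNA of a gene cannot be told apart from more RNA of the others.

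The total counts were 61275465 and 53215587 in the early libraries and 33656717 and 44448857 in the late libraries, and 20350427 to 61275465 over the series. Where no read was counted, up to 3 counts remain possible, or 0.0490 to 0.0891 CPM (counts per 1000000 counts of the library) in these 4 libraries. That limit covers counting error only, because amplified reads are not independent molecules. At least 1 count was held by 22647 and 18773 genes in the early libraries and by 21863 and 22169 genes in the late libraries. Early replicate 1 therefore listed more genes at low counts than early replicate 2, with 5522 genes seen in replicate 1 and at 0 in replicate 2, against 1648 the other way round. Values below in CPM are scaled to library sizes normalized by the TMM method of edgeR, unless the library total is named.

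Of 19443 genes tested with edgeR's quasi-likelihood test, 2654 (13.7%) passed a Benjamini-Hochberg adjusted p of 0.05, and 34.4% had an unadjusted p under 0.05. The 1591 higher genes were 8.18% of those tested, and the 1063 lower genes were 5.47%. For all of them, both late libraries lay on one side of both early libraries, as they did above for 34.8% and below for 30.7% of the genes tested. The higher genes came mostly from low levels. Their median log2 fold change was 5.78, or 5.54 when genes with at most 3 counts in both early libraries were set at the bound that 3 counts allow, and their median level went from 0.596 CPM to 25.8 CPM. The lower genes were abundant at the start and kept part of their level. Their median log2 fold change was -2.11, which is 4.31-fold, and their median level went from 116.7 CPM to 28.7 CPM. Over all genes tested the median log2 fold change was 0.08. Gained genes took 1.41% and 1.26% of the counts in the early libraries and 12.3% and 13.7% in the late libraries, while lost genes went from 38.0% and 35.2% to 11.8% in each late library.

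Leaving out 1 library changed these counts. With either late library left out, the remaining one being assumed to vary like the early ones, 204 genes were higher and 16 lower without replicate 1, and 227 and 56 without replicate 2. Without early replicate 1 there were 1794 higher and 652 lower genes, and without early replicate 2 there were 1475 and 762. Of 245 genes named here, 224 passed in the full set and 55 of these passed without each of the 4 libraries in turn (45 higher and 10 lower), among them Crxos, Zfp352, Eif1ad7, Spic, Dppa4, Rpl41, Nop16, Kdm5b, Rgs2, Cept1, Ooep and Oas1d. The number that no longer passed was 163 without late replicate 1, 156 without late replicate 2, 32 without early replicate 1 and 23 without early replicate 2. The sign turned for 5 genes, Duxf3, Eif1ad, Zp3, Oosp1 and Fshr, none of which had passed. Scaling to library totals moved the share of higher genes among those called from 59.9% to 76.4%, and raised the median of all genes by 0.38. DESeq2 on the same genes called 3635 higher and 2324 lower, and these held every one of the 2654 genes.

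**Figure D1:**
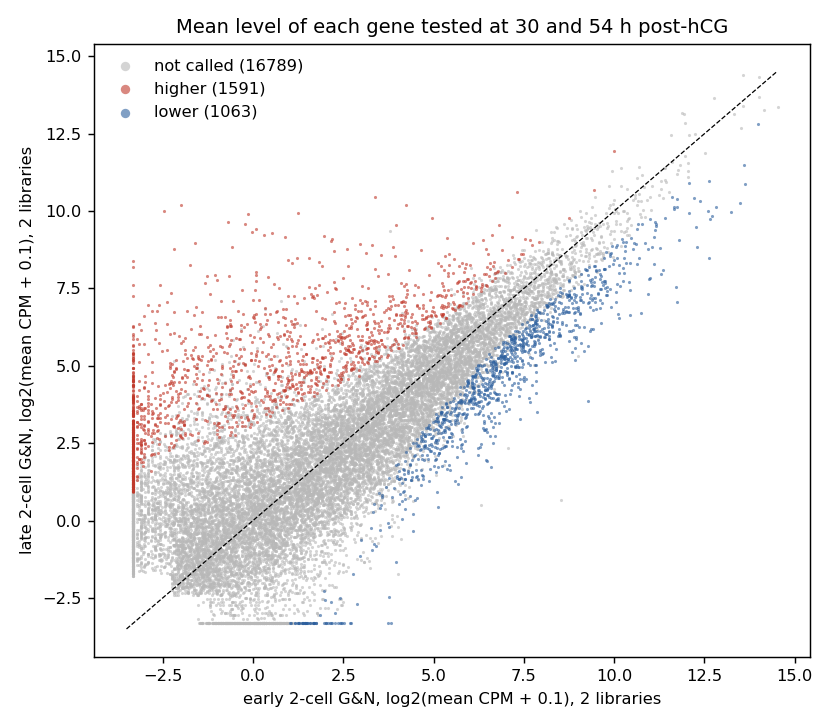
Mean level of each tested gene at the early stage (x axis) against the late stage (y axis), both as log2(CPM + 0.1), over 2 libraries each. The 1591 higher genes spread from the lowest early levels to the middle of the early axis, and the 1063 lower genes lie mostly in its upper part, with the genes not called drawn in grey.

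The gene with the smallest p was Crxos (ENSMUSG00000074365.14, chromosome 7, 15616542 to 15637964 on GRCm39), a homeobox gene of the same group as Crx. It held 4 counts in each early library and 43576 and 47901 counts in the late libraries, which is 0.0689 and 0.0933 CPM against 1085 and 986 CPM. The log2 fold change was 13.62 (SE 0.41), with an adjusted p of 0.00326, and neither late library came near the early ones. Zfp352 (ENSMUSG00000070902.6, chromosome 4, 90107057 to 90113939), a zinc finger gene long used as a marker of the 2-cell stage, was at 7.1 and 8.21 CPM early and 464 and 512 CPM late. Its log2 fold change was 5.99 (SE 0.29), with an adjusted p of 0.00541. The 250 bases before and 50 bases after the start of both genes are shown because the windows differ in their letters although both genes were gained. They are RefSeq promoters on GRCm38.p6, in the direction of the gene, at chr7:15882367-15882666 on the plus strand for Crxos and at chr4:90218570-90218869 on the plus strand for Zfp352. Capitals mark a match to a motif searched on both strands.
Crxos: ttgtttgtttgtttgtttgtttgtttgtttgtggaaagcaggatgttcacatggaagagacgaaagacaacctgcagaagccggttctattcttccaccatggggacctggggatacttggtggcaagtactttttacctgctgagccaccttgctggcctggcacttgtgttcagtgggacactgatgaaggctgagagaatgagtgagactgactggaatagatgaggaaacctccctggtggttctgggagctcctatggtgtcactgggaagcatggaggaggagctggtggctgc
Zfp352: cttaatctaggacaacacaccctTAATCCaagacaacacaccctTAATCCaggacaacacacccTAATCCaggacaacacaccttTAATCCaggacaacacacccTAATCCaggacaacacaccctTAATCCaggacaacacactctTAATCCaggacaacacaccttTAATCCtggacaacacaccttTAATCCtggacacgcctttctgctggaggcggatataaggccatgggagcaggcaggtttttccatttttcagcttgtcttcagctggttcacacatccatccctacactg
The Crxos window held none of the motifs. In the Zfp352 window the letters GGATTA, which bicoid-type homeodomain proteins such as OTX2 and CRX are known to bind, occurred 9 times as their reverse complement TAATCC, in a short repeated unit. Both windows held 2 CpG dinucleotides.

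Homeobox genes moved in both directions. Over all symbols that start with Obox, picked out after their values were seen, 11 of 31 tested rose and 3 fell, with a median log2 fold change of 1.66, and all but 3 of the gains were symbols of Obox3 and Obox4 pseudogenes. Of 12 tested genes of the Obox and PRD-like list, 4 rose, 4 fell and 4 did not pass, with a median log2 fold change of -0.15 (0.25 with library totals). The Obox genes are homeobox genes of the oocyte and early embryo that stand in a cluster on chromosome 7. Obox3 held 44 and 160 counts early and 10557 and 21699 late, and rose by 7.32 (SE 0.93) on the log2 scale. Obox6 was at 60 and 0 counts in the early libraries and 25967 and 46799 in the late ones (log2 fold change 10.53), so its early level rests on 1 library. Obox8 had 0 and 1 counts early and 2471 and 4993 late, which is at least 1763-fold higher at the limit of 3 counts. These 3 genes and Crxos were seen almost only at the late stage. Obox1 and Obox2 did the opposite. Obox1 fell from 4882 and 7455 CPM to 1024 and 1038 CPM (log2 fold change -2.58, SE 0.31), and Obox2 fell from 1935 and 4766 CPM to 184 and 192 CPM (log2 fold change -4.15, SE 0.51). Obox7 fell by 1.42, and Nobox, a homeobox regulator of oocyte genes, fell by 2.27. Obox5, with 594533 and 554214 counts early, was among the 10 genes with most counts in both early libraries, and its log2 fold change of -0.80 did not pass.

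The other transcription factors of the genome activation and early lineage list moved up more often than down. Of 39 tested, 7 rose and 2 fell (23.1% called, against 13.7% of all genes tested), and the median log2 fold change was 1.55. Spic, an ETS-family factor, was at 5.55 and 6.51 CPM early and 337 and 529 CPM late, a log2 fold change of 6.17 (SE 0.38). Gabpa, the DNA-binding subunit of another ETS factor, went from 0.948 and 2.75 CPM to 252 and 431 CPM, by 7.54 (SE 0.72). Klf5, a Krüppel-like factor of the blastocyst lineages, had 2 and 5 counts early and 1693 and 2282 late, with a log2 fold change of 9.23 (SE 0.71). Yy1, a zinc finger factor active in most cells, rose from 2.55 and 4.76 CPM to 104 and 82.8 CPM. Gata3, a trophectoderm factor, and Nfya, a subunit of the CCAAT-binding factor NF-Y, were the genes that fell, with log2 fold changes of -3.16 and -2.02. Duxf3, the Dux gene proposed to open the 2-cell program, had 32 and 0 counts early and 0 and 60 late, too few to show a direction.

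Most members of the multicopy families of the 2-cell stage gained. Of the 49 symbols of the 2-cell transient list, 36 were found and all were tested, and 24 rose, 2 fell and 10 did not pass. Their median log2 fold change was 5.85, or 5.66 with 3 genes at their bounds, and their summed level went from 1187 and 1124.5 CPM to 7799 and 7180.2 CPM of the library totals. Zscan4a and Zscan4f, zinc finger genes of the Zscan4 cluster linked to telomere maintenance, were among the gains, with 94 and 19 counts against 6474 and 5709 and 24 and 3 against 1299 and 763. Zscan4d held 1558 and 36 counts in the early libraries and 24500 and 33739 in the late ones. Both late values lie far above the early ones, but early replicate 1 is so far above replicate 2 that the log2 fold change of 5.55 (SE 1.53) did not pass (adjusted p = 0.0655). Tcstv1, also of this list, was already high early, at 19472 and 28018 counts against 15103 and 13838 late, and did not pass. Arg2, an arginase of mitochondria, and Sp110 fell, with log2 fold changes of -2.63 and -1.32.

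Eif1ad genes, whose products resemble translation initiation factor eIF1A, were picked out by their symbols after their values were seen. Of 18 tested, 16 rose, all of them on chromosome 12 between 87524918 and 88296452 (GRCm39), where 17 of the 18 lie. Eif1ad7 went from 2.03 and 2.47 CPM to 938 and 1040.3 CPM, a log2 fold change of 8.78 (SE 0.34) with an adjusted p of 0.00541. Eif1ad11 was at 0 counts early and 2083 and 2380 late, at least 1096-fold higher, and Eif1ad3 rose from 1.21 and 0.56 CPM to 583 and 708 CPM. Eif1ad13 went from 0.138 and 0.257 CPM to 289.7 and 317 CPM, by 10.61 (SE 0.46), and Eif1ad10 from 2.95 and 2.73 CPM to 397 and 318 CPM, by 6.97 (SE 0.33). Eif1ad itself, on chromosome 19, had 1623 and 1414 counts early and 1160 and 1598 late, with a log2 fold change of 0.02. The copies resemble one another, and how the counting treated reads that match several copies is not given in the sources used here, so the value of a single copy is uncertain. The windows from 250 bases before to 50 bases after the annotated starts of the 3 copies with the smallest p are printed to show how alike the starts of these copies are. They were read from GRCm39 in the direction of the gene, at chr12:88241221-88241520 on the minus strand for Eif1ad7, chr12:87759100-87759399 on the plus strand for Eif1ad13 and chr12:88219593-88219892 on the minus strand for Eif1ad10, with matches to the searched motifs in capitals.
Eif1ad7: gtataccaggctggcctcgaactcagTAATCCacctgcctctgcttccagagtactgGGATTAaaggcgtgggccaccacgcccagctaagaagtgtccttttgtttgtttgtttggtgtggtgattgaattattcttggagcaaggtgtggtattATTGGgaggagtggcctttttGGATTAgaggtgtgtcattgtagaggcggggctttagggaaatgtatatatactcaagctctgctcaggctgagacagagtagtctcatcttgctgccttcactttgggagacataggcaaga
Eif1ad13: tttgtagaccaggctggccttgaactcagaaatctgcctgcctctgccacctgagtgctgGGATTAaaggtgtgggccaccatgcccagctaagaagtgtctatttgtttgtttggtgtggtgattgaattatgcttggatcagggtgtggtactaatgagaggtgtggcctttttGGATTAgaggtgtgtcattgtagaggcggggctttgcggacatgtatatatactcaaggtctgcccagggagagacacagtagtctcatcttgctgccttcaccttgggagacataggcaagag
Eif1ad10: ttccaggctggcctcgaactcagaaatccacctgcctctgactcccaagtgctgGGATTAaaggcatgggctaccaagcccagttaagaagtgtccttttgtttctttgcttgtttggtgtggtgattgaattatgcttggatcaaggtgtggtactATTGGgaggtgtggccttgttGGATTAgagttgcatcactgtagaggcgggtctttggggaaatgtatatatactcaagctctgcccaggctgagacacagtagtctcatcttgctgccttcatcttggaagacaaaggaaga
The 3 windows were 84.7% to 88.2% identical to one another. Over 136 pairs of the 17 copies on chromosome 12, identity ran from 46.1% to 99.0% with a median of 82.3%. GGATTA was found on either strand in 15 of the 16 windows of genes that rose, and since the copies are related by sequence these are not 15 separate observations. The other capitals mark CCAAT, read on the opposite strand as ATTGG.

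**Figure D2:**
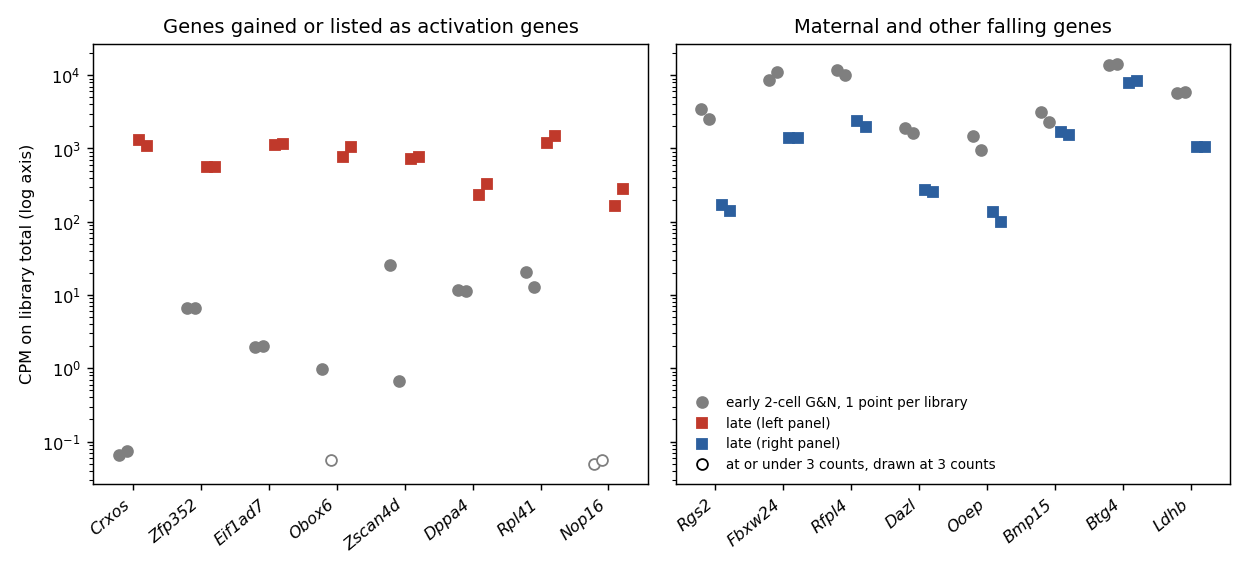
Level of the gained genes Crxos, Zfp352, Eif1ad7, Obox6, Dppa4, Rpl41 and Nop16 and of Zscan4d (left panel), and of the lost genes Rgs2, Fbxw24, Rfpl4, Dazl, Ooep, Bmp15, Btg4 and Ldhb (right panel) in each library, in CPM of the library total on a log axis, with open symbols at the level of 3 counts where the count was at most 3. Zscan4d is the one gene shown that did not pass, with its early libraries far apart, and the late points lie above the early points throughout the left panel and below them in the right.

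The Dppa genes, named for pluripotency-associated expression, were divided. Dppa4 rose from 12.3 and 14.2 CPM to 195 and 303 CPM, a log2 fold change of 4.24 (SE 0.35) (adjusted p = 0.00617), and Dppa5a from 52.1 and 33.1 CPM to 353 and 429 CPM, by 3.20 (SE 0.34). Dppa1 fell by 2.11. Dppa3, a maternal factor that guards DNA methylation in the zygote, was at 11667 and 24902 CPM early and 9924 and 9676 CPM late. Its 2 early libraries differed more from each other than the late ones did from the lower of them, and its log2 fold change of -0.90 (SE 0.40) did not pass.

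Genes that build the ribosome also gained. Of 79 genes of cytosolic ribosomal proteins, 48 rose and none fell by the edgeR test, with a median log2 fold change of 2.74 against 0.08 for all genes. The log2 fold change was above 0 for 74 of them, and DESeq2 called 64 higher and 0 lower. Together they took 0.184% and 0.127% of the counts early and 0.814% and 0.945% late. Rpl41, a short protein of the large subunit, went from 21.5 and 15.9 CPM to 981 and 1372 CPM, by 5.97 (SE 0.37) on the log2 scale (adjusted p = 0.00566). Rps26, Rps27a and Rps15 of the small subunit rose by 5.49, 5.25 and 4.16. Ribosomal protein genes have many processed copies in the genome, so reads could be divided between a gene and its copies.

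Nucleolar ribosome biogenesis genes went the same way in smaller number. Of 80 tested, 17 rose and 2 fell (23.8% called, against 13.7% of all genes tested), with a median log2 fold change of 0.87. Nop16, a nucleolar protein of large subunit assembly, was at 0 counts in both early libraries and at 5558 and 12501 counts in the late ones, at least 4238-fold higher. Utp23, of small subunit processing, held 8 and 2 counts early and 2065 and 5517 late. Nhp2, a protein of box H/ACA particles, rose from 21.3 and 18.2 CPM to 267 and 276 CPM, by 3.78 (SE 0.27). Pinx1 and Noc4l were the members that fell, with log2 fold changes of -2.82 and -2.20. Of 30 RNA polymerase subunit genes, 8 rose and 2 fell (33.3% called), with a median of 1.01. Polr1c, shared by polymerases I and III, rose by 4.03 (SE 0.31), Polr1h by 2.80, Polr3g by 2.53 and Polr2h, shared by all 3 polymerases, by 1.78. Polr2g and Polr2c, of polymerase II, were the members that fell, with log2 fold changes of -1.11 and -1.16.

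Translation factors, chaperones and splicing factors had calls in each direction. Of 53 translation factor genes, 8 rose and 5 fell (24.5% called, against 13.7% of all genes tested), and the median was 0.25. Pabpc1, the main poly(A)-binding protein, rose from 1.21 and 2.29 CPM to 106 and 79.8 CPM, by 5.74 (SE 0.50), and Eif1a by 6.14 (SE 0.55). Eif4ebp1, an inhibitor of the cap-binding protein, and Eif3c, of the scaffold eIF3, rose by 3.66 and 3.19. The genes that fell included Eif4e1b, an oocyte form of the cap-binding protein, Eif1b, Eef1e1 and the helicase Eif4a1, with log2 fold changes of -2.24, -2.64, -1.94 and -1.63. Of 23 chaperonin and heat shock genes, 5 rose and 2 fell (30.4% called). Hsp90aa1, an abundant cytosolic chaperone, fell from 3704 and 3452 CPM to 506 and 559 CPM (log2 fold change -2.75, SE 0.24), while Cct6a, a subunit of the CCT chaperonin, rose from 0.414 and 0.21 CPM to 56.1 and 64.9 CPM. Hspa4 rose by 3.76, and Hspa1b, the stress-induced HSP70, was at 0 counts early and 343 and 283 late. Within the chaperonin, Tcp1 rose by 1.77 and Cct7 fell by 1.48. Of 99 splicing factor genes, 14 rose and 14 fell (28.3% called), with a median of -0.27 that becomes 0.13 with library totals. Snrpc, of the U1 particle, rose by 4.19 (SE 0.38), and Snrpd2, of the Sm ring, by 3.97. Sf3b6, of the U2 particle, and Rbm8a, of the exon junction complex, rose by 3.06 and 2.31. Snrpd3, also of the Sm ring, Snrnp27, Lsm3 and Sf3b1, of the U2 particle, fell, with log2 fold changes of -2.85, -2.45, -2.15 and -1.78.

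**Figure D3:**
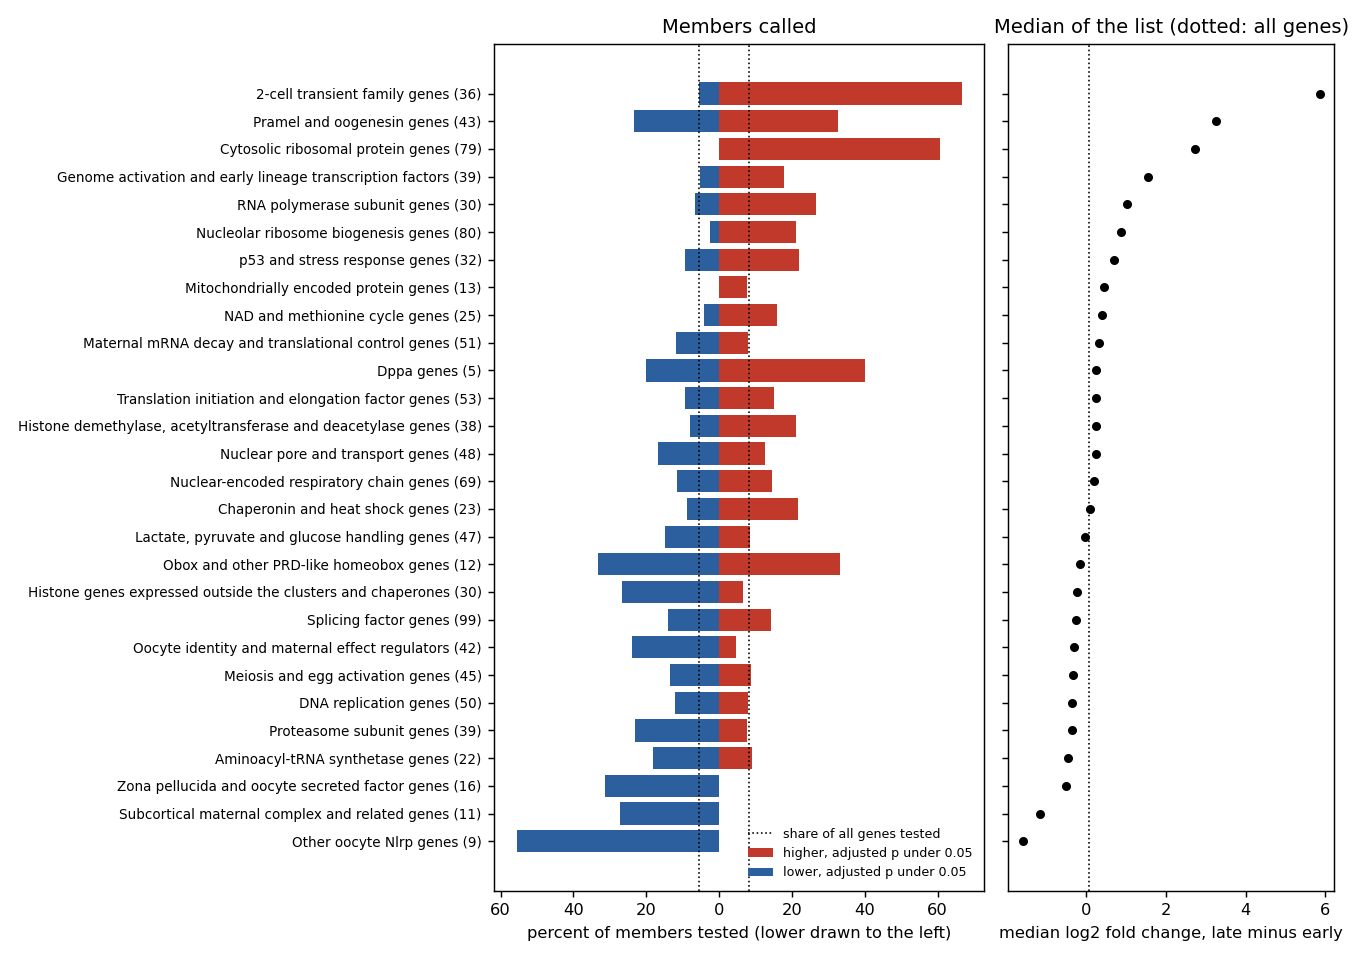
For each of 28 gene lists, the percentage of tested members called higher and lower, and the median log2 fold change of the tested members, with dotted lines at the values of all genes tested (8.18% higher, 5.47% lower and a median of 0.08). The 2-cell transient, Pramel and ribosomal protein lists have the highest medians, and the oocyte Nlrp, subcortical maternal complex and zona lists hold losses and no gains by the edgeR test.

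Pramel and oogenesin genes, leucine-rich repeat genes of the germ line in large clusters, split into a gained and a lost group. Of 43 tested, 14 rose and 10 fell, and the median of 3.25 (3.18 with 6 genes at their bounds) lies between them. Pramel17 had 5 and 1 counts early and 3302 and 2993 late, a log2 fold change of 10.21 (SE 0.67). Pramel31 rose from 0.465 and 0.56 CPM to 76.1 and 43.9 CPM, by 6.87 (SE 0.53), and Pramel7, known from the inner cell mass, from 0 and 5 counts to 3928 and 5976. Pramel11 rose by 4.55. The lost members started high. Pramel25 fell from 5610.0 and 5089 CPM to 1187 and 1398 CPM (log2 fold change -2.05, SE 0.25), Oog4 from 2374 and 1994 CPM to 314 and 306 CPM (log2 fold change -2.82, SE 0.25), and Oog2 and Pramel32 had log2 fold changes of -1.96 and -2.27. These genes are close copies, and their counts may share reads.

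Among the gains there were 494 genes with at most 3 counts in both early libraries, of 1491 tested genes in that state. Genes in that state passed the filter on low counts only through their late counts, so a gain was the only call open to them. The share that passed can therefore not be set against the 8.18% of all genes tested. Of the 494 genes, 406 were at 0 in both early libraries. By annotation 308 were protein-coding, 81 lncRNA and 84 pseudogenes, and the median level in the late libraries was 5.00 CPM. In the 2 early 2-cell G&N-L libraries, 302 of the 494 were also at most at 3 counts in both, while 63 were above 30 counts in at least 1 of them. The gained genes with the highest late level were Gm12617 and Gm11517, processed pseudogenes on chromosome 11. Gm12617 was at 0 counts in the early libraries and 10221 and 20475 in the late ones, at least 7256-fold higher, and Gm11517 at 0 and 9374 and 17281, at least 6335-fold. Whether these reads came from the pseudogenes or from related genes cannot be told from the table. After Nop16 came 1700013H16Rik, at 0 counts early and 2717 and 11680 late, where the late libraries differed from each other more than for the others, and Gm9586, a processed pseudogene, at 0 and 2 early and 3072 and 5767 late. Outside the lists, Pdxk, the kinase of vitamin B6, was chosen after its values were seen, at 0 early and 2845 and 4072 late, at least 1672-fold.

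The gained genes that added most CPM outside these families included genes of general cell functions. Prps1, which makes the ribose donor of nucleotide synthesis, went from 9.33 and 11.5 CPM to 819 and 2006 CPM, by 7.09 (SE 0.59) on the log2 scale. Dnajb9, a chaperone of the endoplasmic reticulum, rose from 34.6 and 27 CPM to 756 and 992 CPM, by 4.83 (SE 0.32). Map1lc3b, an autophagosome protein, rose from 156 and 163 CPM to 1286 and 1849 CPM, and Calm2, a calmodulin gene, from 766 and 1279.5 CPM to 3105 and 4794 CPM. Gcsh, a subunit of the glycine cleavage system, was among the 10 gains with the smallest p, at 4.17 and 4.64 CPM early and 441 and 606 CPM late (log2 fold change 6.89 (SE 0.35), adjusted p = 0.00541). Trim43b, of the TRIM family of ubiquitin ligases, rose from 2.15 and 1.38 CPM to 500.4 and 656 CPM in the same set. The rest of these 10 included symbols without a stated function. Gm4850 went from 0.569 and 0.933 CPM to 688 and 850.1 CPM, AA414992 from 0.0862 and 0.0467 CPM to 101 and 146 CPM and AF067063 from 0.862 and 1.03 CPM to 157 and 190.4 CPM. By gain in CPM, Gm5612 held 16 and 1 counts early and 39217 and 65998 late, and B020004C17Rik held 94 and 0 early and 33129 and 52833 late. Wtap, of the complex that methylates adenosine in mRNA, was already abundant and rose from 758 and 623 CPM to 1367 and 1919 CPM, by 1.25 (SE 0.28).

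Rgs2 (ENSMUSG00000026360.10, chromosome 1, 143875076 to 143879899 on GRCm39), a regulator of G protein signalling that restrains calcium release in the egg, had the smallest p of the lost genes. It was at 3682 and 3166 CPM early and 141 and 126 CPM late, and fell by 4.68 (SE 0.27) (adjusted p = 0.00541). Cept1, which makes phosphatidylcholine and phosphatidylethanolamine, fell from 579.7 and 657 CPM to 49.4 and 51 CPM (log2 fold change -3.62, SE 0.25). Their RefSeq promoters on GRCm38.p6 are shown as those of the lost genes with the smallest p that the table holds, in the direction of the gene, at chr1:144004100-144004399 on the minus strand for Rgs2 and at chr3:106547753-106548052 on the minus strand for Cept1.
Rgs2: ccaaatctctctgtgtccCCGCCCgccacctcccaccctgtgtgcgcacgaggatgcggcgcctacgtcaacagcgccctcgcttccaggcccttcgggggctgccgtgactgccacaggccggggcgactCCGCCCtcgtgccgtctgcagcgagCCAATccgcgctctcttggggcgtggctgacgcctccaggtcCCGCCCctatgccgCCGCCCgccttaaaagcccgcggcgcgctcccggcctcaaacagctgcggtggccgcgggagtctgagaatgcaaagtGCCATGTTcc
Cept1: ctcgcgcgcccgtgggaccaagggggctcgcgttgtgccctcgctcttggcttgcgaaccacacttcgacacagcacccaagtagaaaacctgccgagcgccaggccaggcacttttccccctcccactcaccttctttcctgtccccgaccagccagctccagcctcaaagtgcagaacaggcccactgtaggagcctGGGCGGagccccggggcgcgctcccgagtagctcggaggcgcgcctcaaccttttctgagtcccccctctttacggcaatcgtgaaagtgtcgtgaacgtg
Capitals mark GGGCGG, the GC box, CCAAT and GCCATNTT, the letters of the YY1 motif, on either strand. The Rgs2 window is 70.0% GC with 33 CpG dinucleotides, and the Cept1 window 64.0% GC with 24, against 2 in the Crxos and in the Zfp352 window. These windows do not stand for their groups, since over the RefSeq table the median was 19 CpG for gained and 18 for lost genes, and on GRCm39 it was 12 and 14. Among the 10 lost genes with the smallest p there were also Tdrd12, a tudor domain gene of the piRNA pathway, which fell from 460.4 and 454 CPM to 42.9 and 44.1 CPM, and Nudt7, which hydrolyses coenzyme A in peroxisomes and fell from 541 and 424 CPM to 35 and 38.1 CPM.

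F-box genes of the Fbxw group, oocyte genes that may recruit targets to a ubiquitin ligase, were picked out by symbol after their values were seen. Of 22 tested, 13 fell and none rose by the edgeR test, all 13 on chromosome 9. Fbxw24 fell from 9142 and 13787 CPM to 1176 and 1287 CPM (log2 fold change -3.22, SE 0.32), Fbxw22 from 1820.4 and 2128 CPM to 163 and 155 CPM (log2 fold change -3.63, SE 0.25), and Fbxw15 from 2102 and 1895 CPM to 216 and 232 CPM (log2 fold change -3.16, SE 0.24). Fbxw20 and Fbxw28 fell, with log2 fold changes of -3.59 and -2.89. These genes are also close copies. Oas genes, picked out likewise, gave 5 lost genes of 8 tested, among them Oas1d, an oocyte member of the oligoadenylate synthetase family, which fell from 1961 and 1454 CPM to 103 and 104 CPM (log2 fold change -4.04, SE 0.29). Among genes that passed, the largest losses in CPM were those of Rfpl4, Fbxw24, Pttg1, Btg4 and Bcl2l10. Mphosph6, chosen after its values were seen, lost more, from 16191 and 31052 CPM to 10404 and 10782 CPM, and did not pass (adjusted p = 0.0841), the early libraries differing from each other. Rfpl4, an oocyte ring finger gene, fell from 12454 and 12664 CPM to 1965 and 1822 CPM, E330021D16Rik, without a stated function, fell from 7228 and 5481 CPM to 415 and 308 CPM, and Bcl2l10, of the BCL2 family, from 8402 and 10917 CPM to 1049.8 and 948 CPM (log2 fold change -3.27, SE 0.28). Pttg1, the securin that holds sister chromatids together, fell from 10310.0 and 14505 CPM to 2722 and 2978 CPM (log2 fold change -2.12, SE 0.28).

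Genes of the subcortical maternal complex, a protein lattice under the egg membrane, and the other oocyte Nlrp genes listed gave losses and no gains by edgeR or DESeq2. Over all symbols that start with Nlrp, 7 of 16 tested fell and 1 rose, Nlrp5-ps, a pseudogene at 0 counts early and 111 and 130 late. It and these symbols were picked out after their values were seen. Of 11 complex genes tested, 3 fell and 0 rose (27.3% called, against 13.7% of all genes tested), with a median of -1.15. Over all genes tested 8.18% rose, so the lack of gains in lists this short says little. Ooep fell from 1581 and 1202 CPM to 112 and 89.4 CPM (log2 fold change -3.79, SE 0.30) (adjusted p = 0.00607), and Nlrp5 from 801 and 613 CPM to 119 and 176 CPM (log2 fold change -2.26, SE 0.32). Nlrp2 fell by 2.00. Of 9 other oocyte Nlrp genes, 5 fell and 0 rose (55.6% called), with a median of -1.59. All 9 had both late libraries below both early ones, as did 30.7% of all genes tested. Nlrp4b and Nlrp9b fell, with log2 fold changes of -3.22 and -2.51, and Nlrp4a and Nlrp4g with -2.21 and -2.20. Of 16 zona pellucida and oocyte secreted factor genes, 5 fell and 0 rose by edgeR, while DESeq2 called 7 lower and 1 higher, Bmp6 (log2 fold change 1.30 in edgeR), with a median of -0.50. Bmp15, a growth factor that oocytes send to the cumulus cells, fell from 3356 and 2810.0 CPM to 1400.0 and 1411 CPM (log2 fold change -1.13, SE 0.24), and Gdf9, its partner, fell by 1.56 (SE 0.33). Izumo1r, also called Juno, the sperm receptor of the egg, fell from 254 and 126 CPM to 18.3 and 29.5 CPM, and Oosp2 and Oosp3 fell, with log2 fold changes of -1.89 and -1.23. Zp3, of the zona pellucida, did not pass, at 57.3 and 31.8 CPM early and 50.4 and 54.8 CPM late, where the groups overlap. Oosp1, a secreted oocyte protein, was at 3507 and 4532 CPM and 3362 and 3712 CPM, and its log2 fold change of -0.18 turns to 0.21 with library totals.

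The machinery that clears and silences maternal mRNA had calls in both directions. Of 51 tested genes of this list, 4 rose and 6 fell (19.6% called, against 13.7% of all genes tested), with a median of 0.32. Over all genes tested 8.18% rose and 5.47% fell, so the share of gains in the list is near that of all genes. Btg4 itself fell from 14469 and 17664 CPM to 6543 and 7732 CPM (log2 fold change -1.17, SE 0.26) (adjusted p = 0.0427), and remained among the abundant transcripts. Dazl, an RNA-binding protein of germ cells, fell from 2038 and 2020.0 CPM to 227 and 230.1 CPM (log2 fold change -3.15, SE 0.24). Pabpn1l, the oocyte poly(A)-binding partner of BTG4, fell by 4.17 (SE 0.54), Zar1, which stores maternal mRNA (log2 fold change -2.17, SE 0.36), and Cnot3, of the deadenylase (log2 fold change -1.80). The gains were Tob1, an adaptor of the same deadenylase, by 5.62 (SE 0.53), Papola, a poly(A) polymerase, by 1.72, Ythdf2, a reader of methylated adenosine in mRNA, by 1.87, and Cpeb2 by 2.50.

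Among 45 genes of meiosis and egg activation, 4 rose and 6 fell (22.2% called, against 13.7% of all genes tested). The share of gains was near the 8.18% of all genes tested. Ccnb1, the mitotic cyclin B1, fell from 5657 and 7095 CPM to 1719.9 and 2312 CPM (log2 fold change -1.66, SE 0.28), and Ccnb2 (log2 fold change -2.07), while Cdk1, their kinase, rose from 132 and 106 CPM to 327 and 535 CPM, by 1.86 (SE 0.33), and Cdc25c, the phosphatase that turns the pair on, by 4.91. Kif11, a spindle motor, and Smc1b, a meiotic cohesin, rose by 1.74 and 1.95, and Birc5, of the chromosomal passenger complex, fell by 1.19. Mos, the kinase of meiotic arrest, was at 10.1 and 6.65 CPM early and 2.76 and 5.8 CPM late and did not pass. Of 42 oocyte identity and maternal effect genes, 10 fell and 2 rose (28.6% called). H1f8, the linker histone of oocytes, fell from 1262 and 1452 CPM to 201 and 219.7 CPM (log2 fold change -2.69, SE 0.25), Zfp57, which protects imprints (log2 fold change -2.52, SE 0.29), and Npm2, a histone chaperone of the egg (log2 fold change -1.61, SE 0.27). Rnf114, a maternal ubiquitin ligase, fell by 2.71. The gains were Taf4b, a germ cell subunit of TFIID, by 2.46, and Rlim, a ubiquitin ligase, by 1.28. Of 50 DNA replication genes, 4 rose and 6 fell (20% called), with a share of gains again near that of all genes tested. Those that rose included cyclin E1, Ccne1, by 4.70 (SE 0.64), and Prim1, of the primase, by 1.73. Those that fell included the replication protein A subunits Rpa3 and Rpa1, with log2 fold changes of -3.33 and -2.18. Their partner Rpa2 rose by 2.24. Rfc3, of the clamp loader, and Gins4, of the replicative helicase, fell, with log2 fold changes of -2.91 and -1.36, and Pole, a replicative polymerase, went from 14 and 4 counts to 99 and 716.

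Chromatin genes showed gains among the demethylases. Of 38 genes of histone demethylases, acetyltransferases and deacetylases, 8 rose and 3 fell (28.9% called, against 13.7% of all genes tested), with a median of 0.25. Kdm5b and Kdm5a, demethylases of trimethylated H3K4, rose from 7.65 and 10.3 CPM to 171 and 192 CPM, by 4.34 (SE 0.32) (adjusted p = 0.00599), and from 5.14 and 6.88 CPM to 67.4 and 58.6 CPM, by 3.39 (SE 0.37). Kdm3a, a demethylase of H3K9, rose by 3.96, and Kdm4c, another, from 23 and 2 counts to 1050 and 1791. The deacetylase relatives Sirt4 and Sirt6 and the acetyltransferase Kat7 fell, with log2 fold changes of -3.94, -2.87 and -1.50. Of 30 histone genes outside the clusters and their chaperones, 2 rose and 8 fell (33.3% called). The share of gains was not above the 8.18% of all genes tested. The gains were the H2A.Z genes H2az1, by 2.73 (SE 0.38), and H2az2, by 2.31 (SE 0.29), and the losses included Slbp, which binds the stem-loop of histone mRNA, from 7024 and 7502 CPM to 1024 and 1222 CPM, and the chaperones Asf1a and Nap1l4, with log2 fold changes of -2.12 and -2.06.

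Metabolic lists held calls on both sides. Of 47 tested genes that handle lactate, pyruvate and glucose, 4 rose and 7 fell (23.4% called, against 13.7% of all genes tested), with a median of -0.03 that becomes 0.35 with library totals. Ldhb, the subunit of lactate dehydrogenase that dominates in the egg and a target of the inhibitor, fell from 6012 and 7318 CPM to 867 and 960.0 CPM (log2 fold change -2.87, SE 0.26) (adjusted p = 0.00689), and its loss was among the 10 largest in CPM of genes that passed. Ldha had 32 and 0 counts early and 297 and 575 late, and did not pass. Mpc2, of the pyruvate carrier of mitochondria, rose from 25.3 and 12 CPM to 174 and 227 CPM, by 3.43 (SE 0.46), and Slc2a3, a glucose transporter, by 6.22. Mdh2, the mitochondrial malate dehydrogenase, rose by 3.50 (SE 0.37), as did Idh3g, of isocitrate dehydrogenase, by 4.24, and Mdh1, the cytosolic malate dehydrogenase, fell by 1.86 (SE 0.33). Suclg1, of the succinyl-CoA ligase, fell from 76.2 and 73.8 CPM to 5.4 and 4.55 CPM (log2 fold change -3.91, SE 0.34), and Sdhd, of succinate dehydrogenase, fell by 2.33. Of 25 NAD and methionine cycle genes, 4 rose and 1 fell (20% called), the gains including Nmnat1, which makes NAD from NMN, by 4.52 (SE 0.86), and Parp2, which uses NAD, by 1.86. Naprt was at 0 counts early and 98 and 135 late. Mat2b, a regulatory subunit of methionine adenosyltransferase, fell from 3374 and 3099.6 CPM to 1035 and 1112 CPM (log2 fold change -1.59, SE 0.23). Of 69 nuclear genes of the respiratory chain, 10 rose and 8 fell (26.1% called). Ndufa8, Ndufa10 and Ndufs5 of complex I and Uqcrc2 of complex III fell, with log2 fold changes of -4.91, -3.72, -2.11 and -3.16. In the same complexes Ndufa9 and Uqcrq rose by 2.40 and 2.99, and Cox7b and Atp5g1, of complex IV and the ATP synthase, by 2.26 and 2.37. Genes of the mitochondrial genome took 2.17% and 3.85% of the counts early and 6.77% and 6.84% late. Of their 13 protein genes 1 passed, mt-Nd6, which rose by 1.30 (SE 0.27).

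Of 11 genes listed because the study or earlier work on these samples singled them out, which are so no independent evidence of a direction, 4 rose and 1, Ldhb, fell. The gains were Dppa4, Dppa5a, Kdm5b and Dhx8, an RNA helicase of the spliceosome, which rose from 16.3 and 15.9 CPM to 48 and 57.3 CPM, by 1.71 (SE 0.33). Usp29, a ubiquitin protease gene, was at 13 and 14.6 CPM early and 36.9 and 32.9 CPM late and did not pass (adjusted p = 0.061), nor did Usp33, Usp38, Zfp936, Kdm4b and Ldha.

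**Figure D4:**
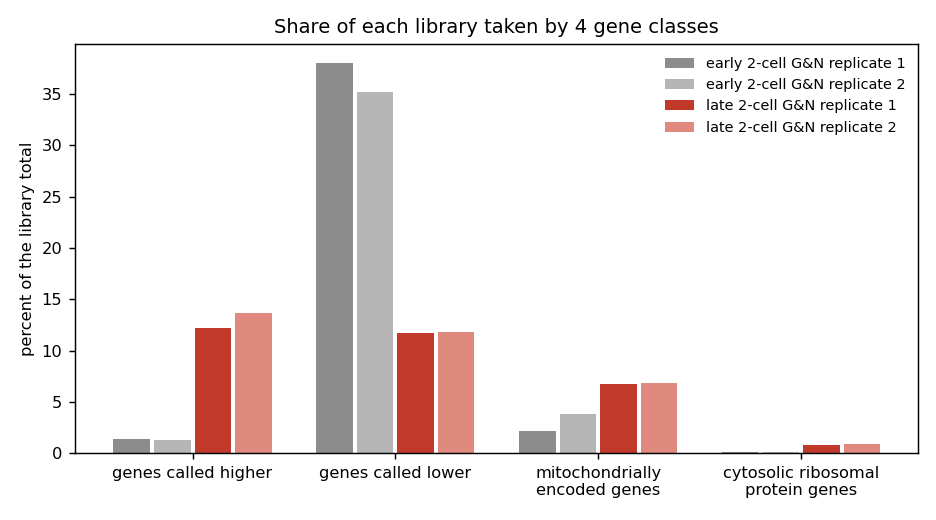
Percentage of each library's counts in the gained genes, the lost genes, the mitochondrially encoded genes and the cytosolic ribosomal protein genes, with 1 bar per library on axes that start at 0. In proportion to bar height, the 2 libraries of a stage lie close together for gained and lost genes, which were called from these same libraries. They lie farther apart for mitochondrially encoded genes at the early stage (2.17% and 3.85%).

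Other lists of the cell's upkeep gave both directions. Of 39 proteasome genes, 9 fell and 3 rose (30.8% called, against 13.7% of all genes tested), with a median of -0.37. The share of gains was near the 8.18% of all genes tested. Psma2 fell from 874 and 925 CPM to 129 and 210.2 CPM (log2 fold change -2.41, SE 0.32), and Psma7, Psmc5 and Psmd1 had log2 fold changes of -2.34, -2.35 and -1.95. Psmb1 rose by 2.46, and Psme2 and Psme4, of proteasome activators, by 4.18 and 1.40. Of 48 nuclear pore and transport genes, 8 fell and 6 rose (29.2% called). Nup37 fell from 626 and 672 CPM to 70.2 and 69.4 CPM (log2 fold change -3.22, SE 0.24), and Nup85, of the same scaffold, fell by 3.70. Nup93 and Nup54, of the inner ring and the channel, had log2 fold changes of -3.05 and -1.98. Ranbp2 and Tpr, on the filaments and the basket of the pore, rose by 3.03 and 1.68, and the exportins Xpo1 and Xpot by 2.50 and 5.66. Of 22 aminoacyl-tRNA synthetase genes, 4 fell and 2 rose (27.3% called), with a share of gains again near that of all genes tested. Farsa and Farsb, the subunits of the phenylalanine enzyme, Nars and Wars had log2 fold changes of -3.27, -1.41, -1.75 and -2.40. Rars rose by 1.66, and Yars went from 2 and 0 counts to 340 and 600. Of 32 genes of the p53 and stress response, 7 rose and 3 fell (31.3% called). Cdkn1a, the p21 inhibitor of cyclin-dependent kinases, rose from 2.29 and 1.38 CPM to 19.8 and 28.9 CPM, by 3.73 (SE 0.57), and Gadd45b by 4.72, while Trp53 itself fell by 1.67. The peroxiredoxins Prdx4 and Prdx5 rose by 6.46 and 2.47, and Prdx1 and Sod1, of the same defence against peroxide and superoxide, fell, with log2 fold changes of -1.63 and -1.60.

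Losses down to no reads were rare. At most 3 counts in both late libraries were held by 482 tested genes, which passed the filter on low counts only through their early counts. A loss was the only call open to them, and 48 passed as lower. The highest early levels among them were those of Slc35b3, a nucleotide sugar transporter of the Golgi, at 869 and 570 counts early and 0 in both late libraries, at least 159-fold lower, and Plbd1, a phospholipase, at 632 and 680 counts and 0, at least 147-fold lower. Fam120b, Cfap61 and Prkcb followed, at least 73.3-fold, 68.9-fold and 67.2-fold lower, Prkcb with early counts of 574 and 62 that differ widely. Most of these genes had reads in some other late library. In the 8 other late 2-cell libraries, 1 of the 48 genes was at most at 3 counts in all 8, and 42 were above 30 counts in at least 1 of them. A single library can decide these counts. Together the 48 genes took 0.00545% of the counts of the 8 libraries, against 0.0162% in the early 2-cell G&N libraries.

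Markers of other cells were checked because the pools could hold follicle, sperm or blood cells. Of 21 cumulus and granulosa markers, 11 passed the filter on low counts, and 2 of these rose and 0 fell by the edgeR test (5 and 1 by DESeq2). The median over the 11 was 2.80 on the log2 scale. Of the 11, 5 had at most 3 counts in both libraries of a stage and passed the filter only through the other stage, so the median depends on the filter. The summed level of the list was 29.4 and 19.6 CPM of the total early and 41.2 and 84.6 CPM late, with 14 of the 21 at 0 in each early library and 10 and 11 in the late ones. Of the markers that define these cells, Amh, Foxl2, Cyp11a1, Inhba and Nr5a1 were at 0 in all 4 libraries, while Cyp19a1, the aromatase, had 1169 and 584 counts early and 219 and 363 late and Fshr, the FSH receptor, 396 and 110 and 12 and 328, and these did not pass. The markers that rose were Gja1, the connexin that also joins the cells of the embryo, at 15 and 0 counts early and 821 and 1947 late, and Tnfaip6, at 0 and 0 and 104 and 223. Of 11 blood markers, 3 were tested and 1, the globin gene Hba-a1, rose, from 22 and 0 counts to 1217 and 1377, with the beta globin genes Hbb-bs and Hbb-bt at 0 throughout. The summed blood markers went from 3.25 and 4.21 CPM of the total to 43.3 and 43.2 CPM. The median over the 3 tested was 7.19, or 4.69 with 1 gene at its bound, which passed the filter only through its late counts. Of 18 sperm markers, 9 were tested and none passed by edgeR, and the protamine Prm2 had 893 and 847 counts early and 142 and 236 late. The summed sperm markers were at 75.7 and 61.3 CPM early and 143 and 95.5 CPM late. Of 18 markers of the blastocyst and later lineages, 11 were tested, 2 rose and 1 fell. The gains were Tfrc, the transferrin receptor, from 6.64 and 4.43 CPM to 190.3 and 271 CPM, and Fgf4, a growth factor of the inner cell mass, from 0 counts to 310 and 679. What part these markers have in the gains was not tested. Of 18 tested genes of chromosome Y, 6 were called higher (33.3%, against 8.18% of all genes tested), and 4 of the 6 were at 0 in both early libraries. Of the 18, 9 were at 0 in both early libraries. A gain was the only call open to these 9, so the shares cannot be set against each other. Uty had 0 and 0 counts early and 462 and 465 late, Zfy1 0 and 0 and 211 and 303, and Eif2s3y 45 and 0 and 1912 and 1843, and the sexes of the pooled embryos are not given in the sources used here.

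The starts of the gained and lost genes were compared in windows of the same length, 250 bases before to 50 after the annotated start on GRCm39, found for 99.2% of the genes tested. The RefSeq table gave a promoter for 63.5% of them, too few for such a comparison. GGATTA was in 15.0% of the windows of gained genes, 8.88% of those of lost genes, 8.95% of those of all genes tested and 8.93% of the 78287 windows of the whole annotation. It can lie inside a stretch that is common in the B1 repeat, and outside that stretch the shares were 13.8%, 8.51% and 8.19% for gained, lost and all tested genes. TCAAGGTCA, the letters of the NR5A2 and ESRRB motif, was in 1.52%, 0.284% and 0.607% in the same order. Of the other motifs, CCAAT was in 44.2%, 39.7% and 39.8%, GGGCGG in 44.2%, 47.9% and 43.3%, TATAAA in 12.5%, 10.1% and 11.9%, and GCCATNTT in 7.03%, 6.52% and 6.80%. The DUX motif was in 0.697%, 0.0945% and 0.218%, and CCGGAAG, the ETS motif, in 11.8%, 14.7% and 11.4%. CCGGAAG was in 30.4% of the windows of ribosomal protein genes and 32.5% of those of nucleolar genes. The 494 genes gained from at most 3 counts had fewer than 5 CpG dinucleotides in 45.1% of their windows, against 28.6% for all gained, 18.1% for lost and 25.1% for all tested genes. Over the whole annotation the share was 53.1%. The 494 genes passed the filter only through their late counts and include 81 lncRNA genes and 84 pseudogenes. What part this has in their share was not tested. A match is a description of letters and not of binding, and many of these genes are copies of each other.

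Gained genes spanned less of the genome. The median span of the protein-coding ones was 17639 bases, against 25460 for lost ones and 27270 for all tested, and 32.5% of the gained ones spanned under 10 kb, against 21.5% of all tested. Lost genes were protein-coding in 87.8% of cases, gained genes in 76.9% and all genes tested in 72.1%. By chromosome, gained genes were most frequent on chromosome 11, after chromosome Y, at 11.1% of the genes tested there, and lost genes on chromosome 9, at 7.60%, which holds the Fbxw genes.

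The same change without lactate was taken from the late and early 2-cell G&N-L embryos, which share no library with the 4 above. There 1111 of 18604 genes were higher (5.97%) and 1092 lower (5.87%), falling to 115 and 220 without late replicate 1, 255 and 423 without late replicate 2, and 487 and 474 lower without early replicates 1 and 2. Of the 1511 gained genes tested in both, 666 were called higher without lactate (44.1% of these, and 60.8% of the genes higher there), 98.3% had the same sign, and 0 were called lower. Their median log2 fold change was 5.48 with lactate and 3.76 without. Of the 1059 lost genes, 642 were called lower without lactate (60.6% of these, and 58.8% of those lower there), with medians of -2.11 and -1.57. These genes were chosen for their change with lactate, so both medians are given side by side without a test. Single genes ranged widely. Crxos had a log2 fold change of 7.63 without lactate, Spic 2.62, Dppa4 2.53, Kdm5b 1.84, Rpl41 5.69, Zfp352 5.55 and Rgs2 -4.33. On library totals, early 2-cell G&N-L embryos were at 2.50 and 0.341 CPM for Crxos and 22.3 and 0.383 CPM for Eif1ad7. With lactate the early values were 0.0653 and 0.0752, and 1.93 and 1.99 CPM. Late, Crxos was at 445 and 347 CPM without lactate and 1295 and 1078 CPM with it. Eif1ad7 was at 1098 and 1041 CPM late without lactate and 1120 and 1137 CPM with it. What part the early levels have in the smaller changes was not tested. Of the ribosomal protein genes, 29 rose and 2 fell without lactate, with a median of 1.49.

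**Figure D5:**
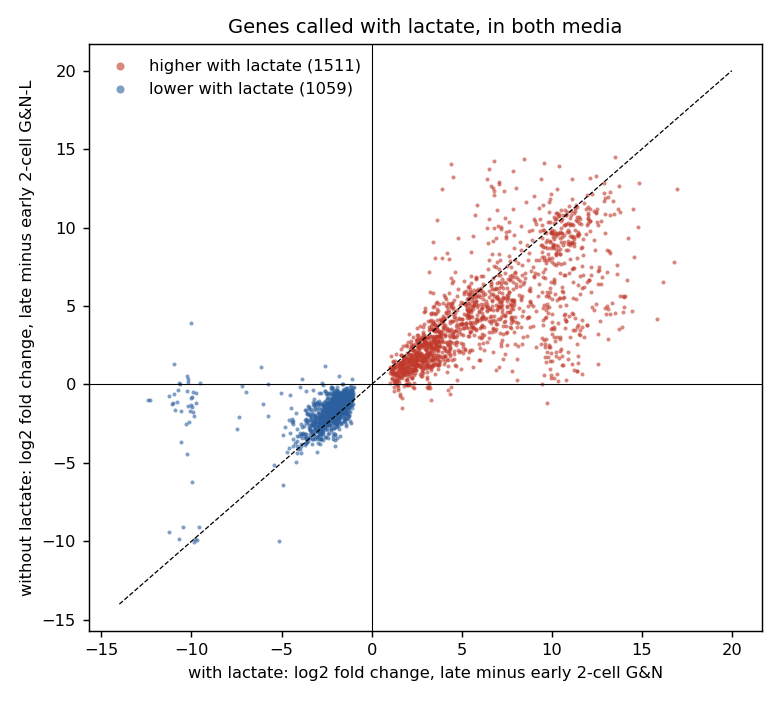
Log2 fold change from early to late in lactate medium (x axis) against that without lactate (y axis) for 1511 gained and 1059 lost genes tested in both, with a dashed line where the 2 are equal. Most points share their sign, and the gained genes spread widely below the line.

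The difference between both changes was tested as the interaction of stage and lactate over the 8 libraries. No gene passed by edgeR (0 of 22287, smallest adjusted p 0.487), with 1683 (7.55%) at an unadjusted p under 0.05, while DESeq2 called 150 higher and 74 lower with lactate. Leaving out 1 library gave edgeR calls in some cases, 18 higher and 2 lower without early 2-cell G&N replicate 1, and 21 and 5 without early 2-cell G&N-L replicate 2. The smallest p belonged to Plbd1, at 0 in both late libraries with lactate and at 272 and 450 counts without, and to Gm773, Tex101, Dhx8 and Dyrk3. By edgeR's test on all 8 libraries, no gene was shown to change differently with and without lactate.

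The calls were also looked up in late 2-cell WT against early 2-cell G&N-L embryos, none of which are in the 4 libraries, though the early ones are shared with the comparison without lactate. The treatment differs between its groups, one with inhibitor and no lactate and the other with injected H3 mRNA, and cannot be told apart from the stage there. There 4357 of 17964 genes were higher (24.3%) and 3223 lower (17.9%). With 1 of its libraries left out the count of higher genes ran from 1989 without late replicate 2 to 3175 without early replicate 1, and that of lower genes from 1522 without early replicate 1 to 2228 without late replicate 1. Of 1534 gained genes tested, 1297 were higher there as well (84.6% of these and 34.1% of the genes higher there), and of 1056 lost genes 844 were lower (79.9% and 27.3%). In each direction 1 gene was called the other way. The medians were 5.54 and 5.14 for gained genes, and -2.10 and -2.65 for lost genes. Of ribosomal protein genes 73 of 79 rose there, with a median of 4.33, and all 9 oocyte Nlrp genes fell, with a median of -3.81. Crxos had a log2 fold change of 10.99 there, Spic 8.22, Dppa4 5.75, Rfpl4 -4.86, Btg4 -3.46 and Rgs2 -6.00.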

How the data were processed

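RNA-seq was done on pools of 5 embryos. The deposited values are whole-number counts of reads per gene. The authors used Trim Galore for trimming, FastQC for read quality, HISAT2 with the mm39 genome for alignment and featureCounts for counting. Versions, the strand setting and the handling of reads with several matches are not given in the sources used here. Groups and replicate numbers follow the sample titles. The methods state 3 replicates a group, and 2 libraries a group were analysed here.

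From these counts, R 4.3.3 with edgeR 4.0.16 and limma 3.58.1 was used for TMM scaling, the default filterByExpr filter and the two-sided quasi-likelihood test. P-values were adjusted over all genes tested by the Benjamini-Hochberg method, with a threshold of 0.05. Log2 fold changes carry a prior count of 0.125. Summaries used Python 3.11.15 with pandas 2.3.3. The scripts were tested on simulated data that varied less between libraries than these, with changes only in the more abundant genes. That test does not give error rates for these data. With 2 libraries on each side, the smallest p of an exact permutation test is 0.333, so single genes rest on the fit across genes. Alternatives were DESeq2 1.42.0, other scalings and filters, larger sets of libraries, the replicate number as a block, a limit of 1 log2 unit and each library left out. Replicates of a group differed beyond counting noise, and none was merged.

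Members and lists were chosen with earlier results of these data known. Genes named were the 10 per direction with the smallest p and the 10 with the largest CPM change, up to 4 a list and direction, the 5 highest of the genes silent at a stage, the 5 smallest interaction p values and a fixed set of markers. Where others are named, the text mostly says so. Zscan4a, Zscan4f, Tcstv1, Obox5, Bmp6, the chromosome Y genes and the markers of other cells that did not pass also fall outside this rule. 1 gene that the rule chose is not reported here. A symbol with several identifiers is given by the one with most counts. Positions are from GENCODE vM39 on GRCm39, and promoters from RefSeq on GRCm38.p6 or from GRCm39.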

Additional observations from a re-analysis of the deposited data

Results flagged for a closer look

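For 3 of the genes named, all late libraries lay above all early libraries with lactate, on library totals, and all lay below without lactate. Of the 19443 genes tested, 515 went opposite ways in this manner, counting also those that fell with lactate and rose without. The difference between both changes was tested as the interaction of stage and lactate in edgeR, and no gene passed.

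Dhx8 was at 15.5 and 12.8 CPM of the total early and 57.3 and 62.7 CPM late with lactate. Without lactate it was at 10.5 and 12.4 CPM early and 5.21 and 5.22 CPM late. The log2 fold changes were 1.71 and -1.50, and their difference was 3.26 (unadjusted p = 9.7e-05, adjusted p = 0.494 in edgeR).

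Rars, the arginyl-tRNA synthetase gene, was at 25.5 and 14.2 CPM early and 84.4 and 77.4 CPM late with lactate, and at 20.4 and 28.1 CPM early and 15.3 and 19.4 CPM late without. The log2 fold changes were 1.66 and -0.84, and their difference was 2.56 (unadjusted p = 0.000604, adjusted p = 0.494 in edgeR).

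Eif1ad was at 26.5 and 26.6 CPM early and 34.5 and 36.0 CPM late with lactate, and at 16.6 and 25.3 CPM early and 14.8 and 15.2 CPM late without. After TMM scaling its log2 fold change was 0.02 with lactate and -0.84 without, and the difference of 0.91 did not pass (unadjusted p = 0.0917, adjusted p = 0.684 in edgeR).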

How the results depend on the processing

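With 2 libraries a group, the counts of gained and lost genes moved most with the libraries used. Leaving out 1 of the 4 libraries gave 204 to 1794 higher and 16 to 762 lower genes. DESeq2 called 3635 and 2324. Without the filter there were 2892 and 2168. Fitting all 14 libraries gave 2444 higher, fitting 8 gave 1642 lower, and library totals gave 618 lower. DESeq2 size factors raised the median of all genes by 0.11, and 65.1% of their calls were higher. Late 2-cell G&N-L against early gave 3124 and 2094 by DESeq2, and 115 to 906 higher and 220 to 487 lower with 1 library left out. Late 2-cell WT against early 2-cell G&N-L gave 1989 to 3175 and 1522 to 2228 with 1 left out. The interaction gave 150 and 74 by DESeq2, and 0 to 21 and 0 to 5 with 1 left out. The cause of these moves was not tested, apart from the smaller sets of libraries and genes that each setting makes.

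Deviations from the group means were nearly uncorrelated between libraries with the same replicate number (0.00815 with lactate, -0.0427 without and -0.00407 for the WT comparison). No pairing by number was seen, though such a check with 2 libraries a group cannot exclude one. With the replicate number as a block, 1086 genes were higher and 753 lower with lactate, 699 and 692 without, and 2139 and 1611 in the WT comparison, and 22 of the named genes no longer passed.

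Some values changed sign. With 1 library left out, the log2 fold change ran from -6.72 to 7.78 for Duxf3, -0.10 to 0.16 for Eif1ad, -0.11 to 0.85 for Zp3, -0.28 to 0.027 for Oosp1 and -3.98 to 0.56 for Fshr. Eif1ad was at -0.010 without the filter, and Oosp1 at 0.21 with library totals. Less the median of all genes, the list medians ran from -0.30 to 0.26 (nuclear pore), -0.31 to 0.44 (maternal mRNA decay), -0.37 to 0.22 (histone demethylases and related enzymes) and -0.25 to 0.32 (respiratory chain) with 1 library left out, the lowest without an early library. The Pramel and oogenesin median turned to -1.07 where at least 10 counts were asked of every library, a filter that removes genes gained from no counts.

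Depth limits the low side: a gene at 0 early has no measured level, and its fold is given as a bound at 3 counts. The windows on GRCm39, the families picked by symbol, the look at silent genes in other libraries, the GGATTA shares outside the B1 letters and the medians with bounds were added after seeing the data.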
